A study of Mus musculus with 20 samples.

Results

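The mouse genome carries a cluster of Cyp2 genes on chromosome 7 that includes the Cyp2a and Cyp2b genes, and 7 of them are described here in liver: Cyp2a4, Cyp2a5, Cyp2a12, Cyp2a22, Cyp2b9, Cyp2b10 and Cyp2b13. They were chosen by symbol, as 7 of the 25444 gene loci listed and 7 of the 13704 genes with enough counts to be tested. Of the 9 loci with a Cyp2a or Cyp2b symbol, the other 2, Cyp2b19 and Cyp2b23, had at most 2 counts in any library and were not tested. RNA-seq was performed on the left lateral liver lobe of 20 mice at 20 weeks of age, with no treatment named in the labels and 5 mice in each of 4 groups: B6 females, B6 males, C3 females and C3 males. B6 is the inbred strain C57BL/6N and C3 is C3H/HeN. The study sequenced the livers to compare female with male and C3 with B6 gene expression. The mice came from 1 supplier and were housed singly, the sexes in different rooms, and an effect of sex cannot be told apart from one of the room. Libraries held 27370921 to 46835745 counts and were sequenced in 3 pools, with 1 or 2 mice of each group in each pool.

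Cytochrome P450 enzymes of the CYP2A and CYP2B subfamilies sit in the endoplasmic reticulum of hepatocytes, take electrons from NADPH through cytochrome P450 reductase, and add oxygen to steroids, drugs and other foreign compounds. Cyp2a5 encodes coumarin 7-hydroxylase, and its close relative Cyp2a4 encodes a steroid 15-alpha-hydroxylase. Cyp2a12 also encodes a steroid hydroxylase. Cyp2b10 is the classic target of the constitutive androstane receptor (CAR), the nuclear receptor that phenobarbital activates. Cyp2b9 and Cyp2b13 are known as genes of the female liver. In mouse liver, sex differences of P450 genes depend largely on the pattern of growth hormone secretion, which is pulsatile in males and more even in females.

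On the mm9 build, the 7 genes span 1139 kb of chromosome 7. In order along the chromosome they are Cyp2b10 (26682677 to 26711643), Cyp2b13 (26846514 to 26881215), Cyp2b9 (26958428 to 26995679), Cyp2a4 (27092211 to 27100107), Cyp2a5 (27620358 to 27628283), Cyp2a22 (27716650 to 27724405) and Cyp2a12 (27814109 to 27821834). Cyp2a22 lies on the minus strand and the others on the plus strand. Their gene identifiers in the deposited tables are, in the same order, 13088, 13089, 13094, 13086, 13087, 233005 and 13085.

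The 7 genes include 3 pairs of closely related sisters. The 200 bases before each annotated start are shown because Cyp2a4 and Cyp2a5, with almost the same promoter, differed in sex pattern. Sequences were read from the mm9 genome, 5′ to 3′ on the strand of the gene, and each also occurs in the RefSeq promoter table of build GRCm38. Capitals mark bases that differ from the sister window or have no counterpart in it. Cyp2b10 has no sister here and is in lower case throughout.
Cyp2a4, chr7:27092011-27092210: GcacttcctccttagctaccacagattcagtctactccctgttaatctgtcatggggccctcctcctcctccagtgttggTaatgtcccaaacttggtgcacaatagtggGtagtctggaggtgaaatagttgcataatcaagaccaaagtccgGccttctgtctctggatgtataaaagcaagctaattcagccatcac
Cyp2a5, chr7:27620158-27620357: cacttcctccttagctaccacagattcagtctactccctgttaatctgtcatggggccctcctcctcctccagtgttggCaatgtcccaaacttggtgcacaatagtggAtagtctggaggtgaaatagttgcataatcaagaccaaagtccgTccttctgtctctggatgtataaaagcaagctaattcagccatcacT
Cyp2a12, chr7:27813909-27814108: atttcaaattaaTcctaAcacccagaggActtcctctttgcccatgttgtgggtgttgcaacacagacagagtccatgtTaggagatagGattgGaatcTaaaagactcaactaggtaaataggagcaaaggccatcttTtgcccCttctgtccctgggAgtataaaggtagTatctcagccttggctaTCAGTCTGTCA
Cyp2a22, chr7:27724406-27724605, minus strand: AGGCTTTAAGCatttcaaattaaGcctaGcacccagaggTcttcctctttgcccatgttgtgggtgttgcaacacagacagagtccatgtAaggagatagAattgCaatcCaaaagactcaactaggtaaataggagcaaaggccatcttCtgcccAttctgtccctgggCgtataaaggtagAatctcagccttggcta
Cyp2b9, chr7:26958228-26958427: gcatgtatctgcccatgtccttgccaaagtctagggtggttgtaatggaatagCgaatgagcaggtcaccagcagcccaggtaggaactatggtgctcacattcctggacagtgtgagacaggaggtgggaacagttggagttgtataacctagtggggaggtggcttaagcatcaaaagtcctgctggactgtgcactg
Cyp2b13, chr7:26846314-26846513: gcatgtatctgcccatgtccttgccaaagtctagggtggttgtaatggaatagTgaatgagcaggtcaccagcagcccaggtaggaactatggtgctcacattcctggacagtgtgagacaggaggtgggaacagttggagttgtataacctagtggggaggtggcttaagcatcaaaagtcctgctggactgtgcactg
Cyp2b10, chr7:26682477-26682676: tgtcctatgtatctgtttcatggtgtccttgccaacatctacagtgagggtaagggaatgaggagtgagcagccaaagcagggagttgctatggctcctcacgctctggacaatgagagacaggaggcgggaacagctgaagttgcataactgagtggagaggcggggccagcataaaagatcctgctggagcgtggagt

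The Cyp2a4 and Cyp2a5 windows aligned over 201 columns with 196 identical bases, 3 substitutions and an offset of 1 base at each end. With positions counted from 1 at the 5′ end of the Cyp2a4 window, the substitutions were T81C, G111A and G155T. The Cyp2b9 and Cyp2b13 windows were identical at 199 of 200 bases, with C54T from Cyp2b9 to Cyp2b13. The Cyp2a12 and Cyp2a22 windows had 178 identical bases and 11 substitutions in 211 aligned columns, and their annotated starts were offset by 11 bases. Cyp2b10 was 69.9% identical to Cyp2b9 and to Cyp2b13 in this window. The coding sequences of the sisters were also close, at 98.5% identity for Cyp2a4 and Cyp2a5, 97.0% for Cyp2a12 and Cyp2a22 and 92.5% for Cyp2b9 and Cyp2b13.

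Short motifs were searched in the windows, and they were chosen after the sequences had been seen. TATAAA, the TATA box, was searched on the strand of the gene. It was found in Cyp2a4, Cyp2a5, Cyp2a12 and Cyp2a22 and in 6.83% of 24604 mm9 windows of the same length before annotated gene starts. All other motifs were searched on both strands. TTGCNNAA, a C/EBP core, was found in Cyp2a4, Cyp2a5, Cyp2b9, Cyp2b10 and Cyp2b13 and in 6.92% of all windows. CAAAGTC, part of a site for HNF4, was found in Cyp2a4, Cyp2a5, Cyp2b9 and Cyp2b13 and in 2.72% of all windows. In Cyp2b9 and Cyp2b13 it overlapped the TTGCNNAA match. AGGTCA, a nuclear receptor half-site, was found in Cyp2b9 and Cyp2b13 and in 10.1% of all windows, and CCAAT was found in Cyp2a12 and in 30.9%. TTCNNNGAA, the palindrome of STAT5, and ATTGAT, the core of HNF6 and CUX2 sites, matched in 5.42% and 5.17% of all windows and in none of the 7. None of the 3 substitutions between Cyp2a4 and Cyp2a5 fell in a match. No binding data were analysed here.

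Expression was first set out as deposited TPM, a measure of transcript abundance that is scaled by gene length, so that levels can be compared between genes. Values of single livers are listed from replicate 1 to 5, and group values are means ± SD of 5 mice. For comparisons, log2 fold changes are from the edgeR quasi-likelihood test with group and pool in the model and Benjamini-Hochberg adjustment over all genes tested. The standard error after ± was derived as the size of the log2 fold change over the square root of the F statistic of that test. Where a group has few counts, it can understate the uncertainty. Genes were called by the thresholds of the study, an adjusted p under 0.001 together with a log2 fold change beyond 0.5 in either direction.

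In the livers of B6 females, Cyp2a12 had the highest mean level, 1427 ± 360.2 TPM, followed by Cyp2a5, Cyp2b9, Cyp2a4, Cyp2b13, Cyp2b10 and Cyp2a22. The livers of neighbours in this order overlapped for Cyp2a12 and Cyp2a5, for Cyp2a5 and Cyp2b9, and for Cyp2a4 and Cyp2b13. In B6 males the order was Cyp2a12, Cyp2a5, Cyp2b10, Cyp2b9, Cyp2a4, Cyp2a22 and Cyp2b13, and only the steps from Cyp2a5 to Cyp2b10 and from Cyp2a22 to Cyp2b13 were free of overlap. In C3 females Cyp2a4 stood second, with a range that overlapped that of Cyp2a12, and Cyp2b9, Cyp2a5, Cyp2b13, Cyp2a22 and Cyp2b10 followed. In C3 males Cyp2a12 was above Cyp2a5, Cyp2a5 above Cyp2b10 and Cyp2b10 above Cyp2a22 without overlap in livers, and Cyp2a4, Cyp2b9 and Cyp2b13 came last.

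**Figure D1:**
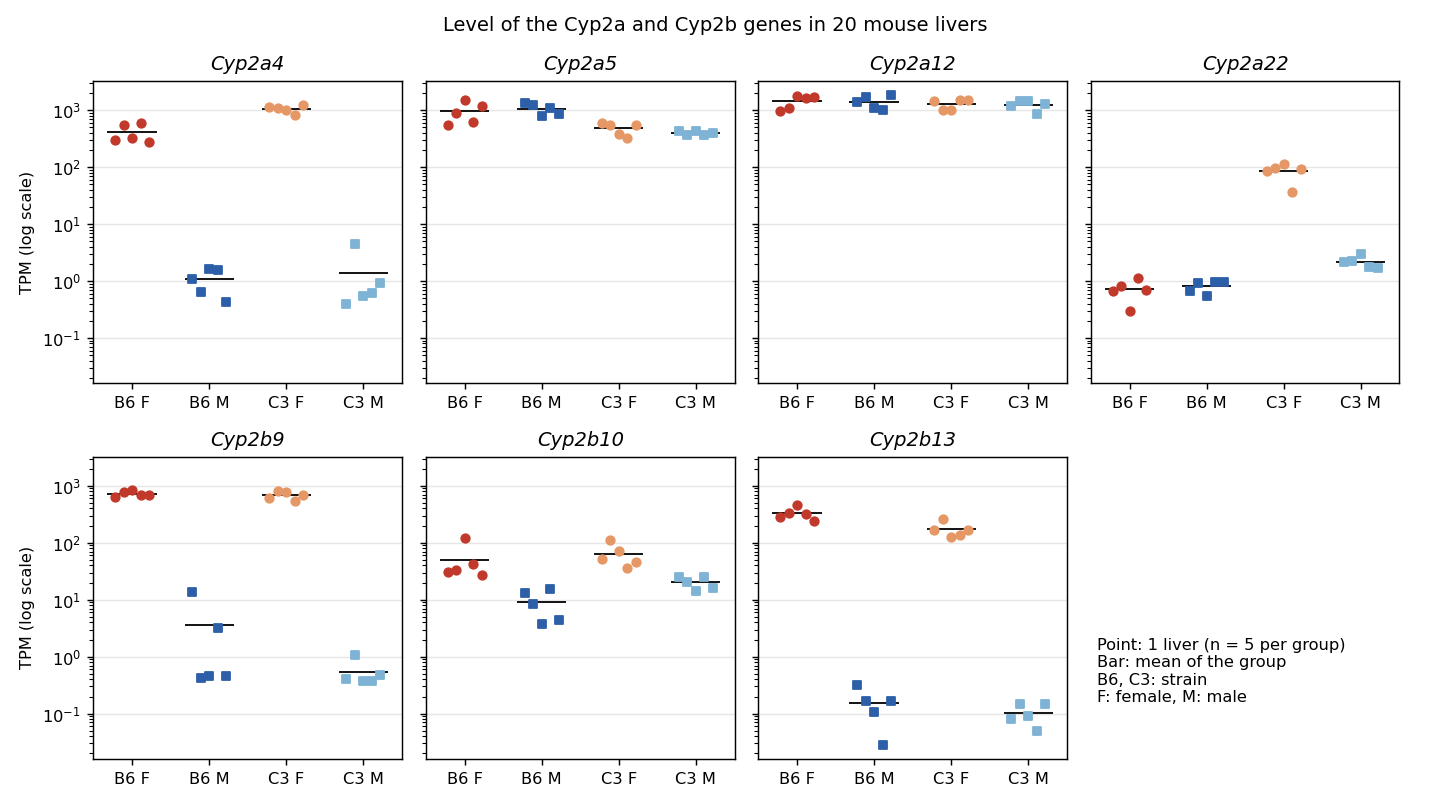
TPM of the 7 genes in each liver on a logarithmic axis, by group (B6 or C3 strain, F female, M male), with a bar at the mean of 5 livers. Cyp2a4, Cyp2b9 and Cyp2b13 lie between 128 and 1208 TPM in the 10 females and between 0.0280 and 13.7 TPM in the 10 males, Cyp2a12 lies in one band in all 4 groups, and Cyp2a22 stands out in C3 females.

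Females were compared with males within each strain to ask which genes differ by sex in the liver. In B6 mice, 4 of the 7 genes were called and all 4 were higher in females: Cyp2a4, Cyp2b9, Cyp2b10 and Cyp2b13. Among all genes tested, 6.34% were called in this comparison, 3.23% as higher and 3.12% as lower in females. In C3 mice, 4 of the 7 genes were called, again all higher in females: Cyp2a4, Cyp2a22, Cyp2b9 and Cyp2b13, where 6.90% of all genes were called, 4.11% as higher and 2.79% as lower. The median log2 fold change of the 7 genes was 2.34 in B6 and 5.12 in C3, and that of all genes tested was 0.002 and 0.01. Of all genes called for sex, 50.9% were higher in females in B6 and 59.6% in C3, and with upper-quartile scaling these shares were 64.3% and 70.0%. In bulk liver, fewer cells of a type and less RNA per cell cannot be told apart.

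Cyp2b13 had the largest fitted sex difference of the 7 genes in both strains, although in C3 that of Cyp2b9 lay within its error. Its TPM was 281, 333, 468, 320.2 and 244 in the B6 females and 167, 257, 128, 139 and 170.5 in the C3 females. In males it was close to absent: the libraries held 9, 5, 4, 1 and 5 counts in B6 and 2, 5, 3, 2 and 4 in C3. Every female thus lay above every male of its strain. The fitted female to male log2 fold change was 10.96 ± 0.30 in B6 (adjusted p = 3.5e-15) and 10.63 ± 0.32 in C3 (adjusted p = 1.3e-14). Its size rests on the few male counts. With the same male counts the standard error of Cyp2b13 was 0.73 for strain in males and 0.82 in the interaction of sex and strain. The errors given for sex thus understate the uncertainty.

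Cyp2b9, whose promoter window differs from that of Cyp2b13 at 1 base, was high in all females. Its TPM was 647, 785, 857, 695 and 683 in B6 females and 613, 806, 794, 549 and 679 in C3 females, a spread of at most 1.47-fold within a group. In B6 males it was 13.7, 0.427, 0.450, 3.22 and 0.459, and in C3 males 0.399, 1.05, 0.368, 0.370 and 0.486. In 7 of the 10 males it was thus between 0.368 and 0.486 TPM, and B6 male replicate 1 had a level well above the rest but still far below any female. The log2 fold change was 7.96 ± 0.63 in B6 (adjusted p = 2.7e-08) and 10.45 ± 0.73 in C3 (adjusted p = 5.5e-09). Without B6 male replicate 1 the value in B6 was 9.24, and without C3 male replicate 2 the value in C3 was 11.09.

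Cyp2a4 showed the same direction in both strains. Its TPM was 299, 548, 323, 584 and 277 in B6 females and 1149.6, 1094, 1024, 818 and 1208 in C3 females. In B6 males it was 1.07, 0.647, 1.62, 1.56 and 0.430, and in C3 males 0.393, 4.47, 0.537, 0.620 and 0.940. The lowest female lay 171-fold above the highest male in B6 and 183-fold in C3. The log2 fold change was 8.42 ± 0.51 in B6 (adjusted p = 6.0e-10) and 9.42 ± 0.52 in C3 (adjusted p = 1.5e-10), and 10.60 in C3 without male replicate 2.

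Cyp2a5, the sister of Cyp2a4, did not pass the test for sex in either strain. Its TPM was 545, 887, 1532, 608 and 1177 in B6 females and 1314, 1234, 775, 1083 and 864 in B6 males. In C3 it was 599, 553, 383, 331 and 556 in females and 438, 359, 435, 365 and 400.2 in males. The livers of the sexes overlapped in both strains. The log2 fold change was -0.30 ± 0.20 in B6 (adjusted p = 0.25) and 0.25 ± 0.20 in C3 (adjusted p = 0.32), and neither was called.

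Because sister genes share sequence, part of their reads cannot be placed, and such reads were not counted. Of the 125-base windows of the Cyp2a5 transcript, 18.7% also occurred in another transcript or elsewhere in the cluster. The share was 6.53% for Cyp2a4, 5.35% for Cyp2a12, 3.90% for Cyp2a22, 3.54% for Cyp2b13 and 0% for Cyp2b9 and Cyp2b10. Only 102 of the 1889 Cyp2a5 windows occurred in the transcript of Cyp2a4, and no Cyp2b13 window occurred in another transcript. The transcripts used may differ from the gene models that were counted, so these shares do not measure the reads lost. In males the counts of Cyp2a4 were between 0.0498% and 0.209% of those of Cyp2a5 in B6 and between 0.0897% and 1.25% in C3. The low male values of Cyp2a4 are therefore uncertain in detail. With the counts of Cyp2a4 and Cyp2a5 added together, the female to male log2 fold change was 0.24 in B6 (adjusted p = 0.22) and 1.9 in C3 (adjusted p = 3.6e-08).

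Cyp2b10, the target of CAR, was called as higher in females in B6, by a smaller factor than Cyp2a4, Cyp2b9 and Cyp2b13. Its TPM was 30.5, 33.9, 119, 42.3 and 27.4 in B6 females and 13.1, 8.44, 3.73, 15.2 and 4.32 in B6 males. In C3 it was 53.0, 113, 72.6, 36.0 and 46.2 in females and 24.9, 20.7, 14.0, 25.3 and 15.8 in males. The sexes did not overlap in either strain, although B6 female replicate 3 stood apart from the other B6 females. The log2 fold change was 2.34 ± 0.39 in B6 (adjusted p = 1.9e-04, called) and 1.57 ± 0.38 in C3 (adjusted p = 0.0037, not called at the threshold of 0.001). Without B6 female replicate 3 the value in B6 was 1.86. The difference between the strains was itself tested and was not called (log2 -0.77 ± 0.54, adjusted p = 0.53).

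Cyp2a22 differed by sex in C3 and was low in both sexes of B6. In C3 females its TPM was 84.8, 95.6, 111, 36.0 and 92.0, and in C3 males 2.12, 2.20, 2.95, 1.75 and 1.70. In B6 it was 0.661, 0.822, 0.293, 1.14 and 0.688 in females and 0.675, 0.914, 0.536, 0.943 and 0.967 in males, from 9 to 44 counts per library. The C3 females thus stood apart from the other 3 groups, and the lowest of them was 12.2-fold above the highest C3 male. The log2 fold change was 5.12 ± 0.27 in C3 (adjusted p = 8.2e-11) and -0.25 ± 0.38 in B6 (adjusted p = 0.63).

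Cyp2a12, the sister of Cyp2a22, did not pass the test in either strain. Its mean TPM was 1427 ± 360.2 in females and 1415 ± 382 in males of B6, and 1289 ± 262 in females and 1250.2 ± 253 in males of C3. The log2 fold change was -0.10 ± 0.07 in B6 (adjusted p = 0.29) and 0.05 ± 0.07 in C3 (adjusted p = 0.63), the smallest standard errors among the 7 genes.

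The 4 genes called in B6 did not overlap between the sexes in TPM, against 12.4% of all genes tested. In C3, 5 genes did not overlap, the 4 called and Cyp2b10, against 14.6%. Within each pool the sex differences of these genes kept their direction. In B6 the log2 ratio of mean female to mean male CPM within a pool was 7.93 to 9.53 for Cyp2a4, 5.89 to 10.48 for Cyp2b9, 1.66 to 3.10 for Cyp2b10 and 10.47 to 12.01 for Cyp2b13. In C3 it was 8.58 to 10.65, 9.68 to 10.92, 1.16 to 1.71 and 10.23 to 11.77 for the same genes, and 4.53 to 5.73 for Cyp2a22. For Cyp2a5 and Cyp2a12 the pools did not share one direction in B6, with -0.50 to 0.14 and -0.25 to 0.25. In C3 they were 0.06 to 0.40 for Cyp2a5 and -0.06 to 0.12 for Cyp2a12. A pool held 1 or 2 mice of a group, so these values have no test.

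**Figure D2:**
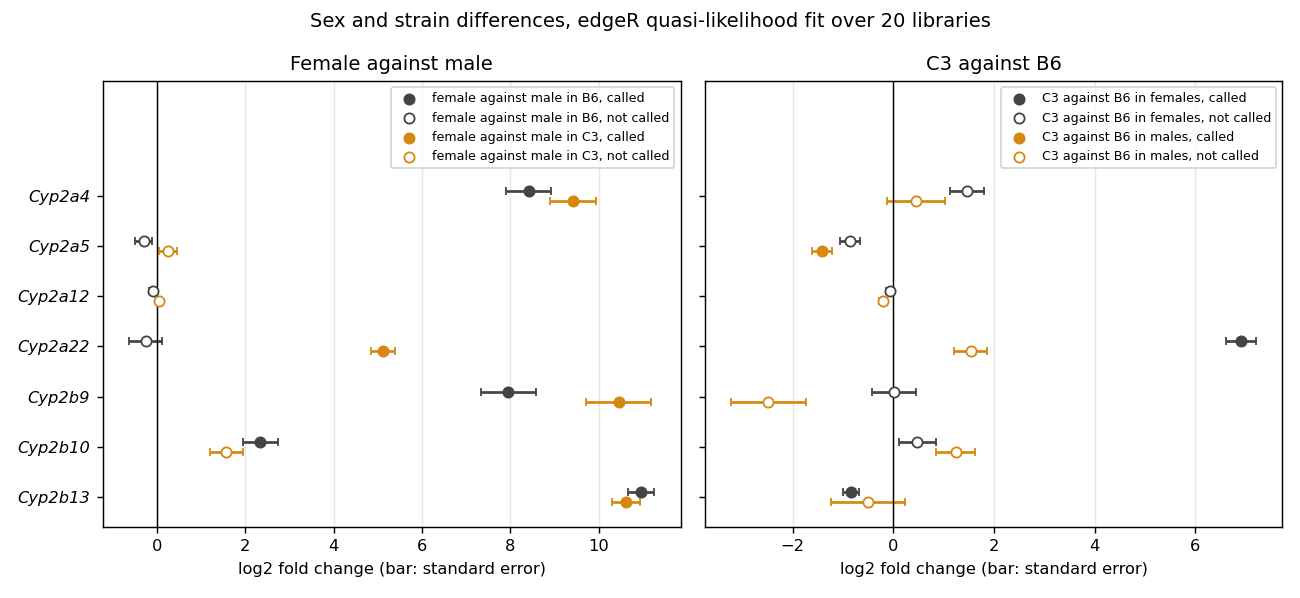
Fitted log2 fold change of each gene with its standard error, female against male (left) and C3 against B6 (right), with filled points for called differences and open points for the others. Sex differences reach 10.96 for Cyp2b13, and among strain differences Cyp2a22 in females stands alone at 6.90.

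The sex difference was not uniform along the cluster. From Cyp2b10 the genes with a called sex difference in B6 were the first 4 in order, Cyp2b10, Cyp2b13, Cyp2b9 and Cyp2a4, whose starts lie within 409.5 kb. Cyp2a5 starts 938 kb from Cyp2b10, and was not called. Between them lie Cyp2b23, Cyp2b19 and Cyp2g1. Of the 8 other genes of the cluster that were listed, 5 were tested. Cyp2g1, known from the olfactory mucosa, was higher in females in both strains, at 3.49 ± 0.21 in B6 (adjusted p = 7.8e-10) and 2.02 ± 0.19 in C3 (adjusted p = 2.3e-07), from a low level of at most 17.2 TPM. Cyp2f2, known for the oxidation of naphthalene, was lower in females, at -0.86 ± 0.10 (adjusted p = 5.7e-06) and -0.88 ± 0.11 (adjusted p = 5.8e-06). The other 3 tested genes of the cluster were not called for sex by edgeR, while limma on log2 (TPM + 0.1) called 3 of the 5 genes in B6. The median of the 5 was 0.42 in B6 and 0.27 in C3.

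**Figure D3:**
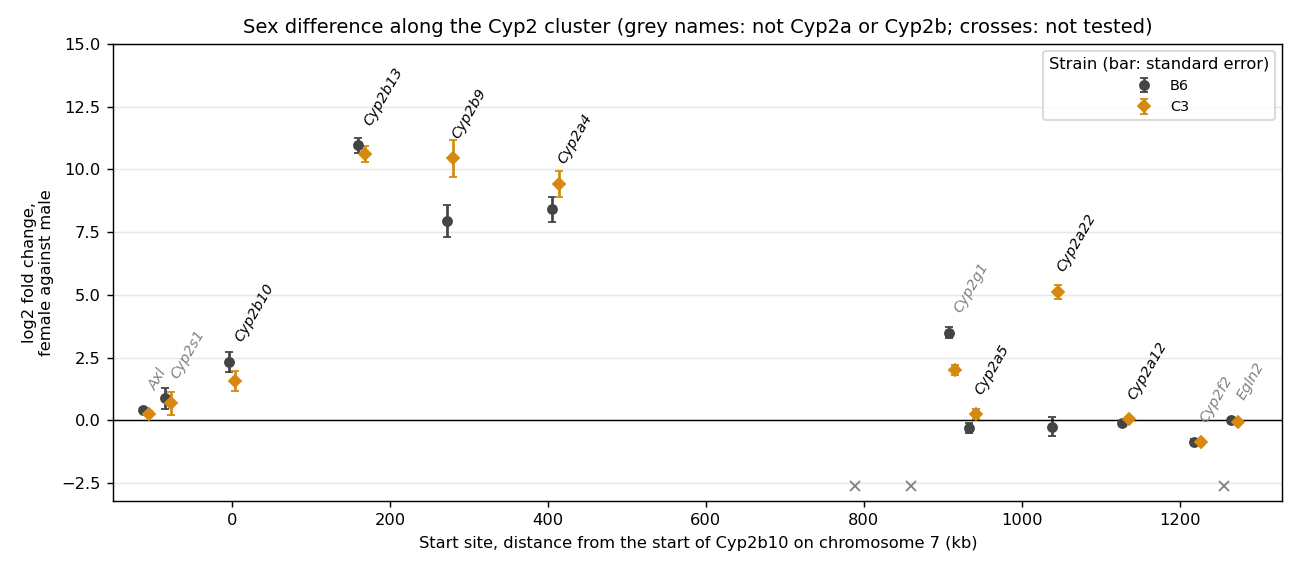
Female to male log2 fold change with its standard error against the distance of each start from that of Cyp2b10, in kb, for B6 and C3. Cyp2b13, Cyp2b9 and Cyp2a4 form a high group between 164 and 409.5 kb, Cyp2a5 and Cyp2a12 lie between -0.30 and 0.25, and Cyp2a22 is high in C3 at 5.12 and not in B6, at -0.25.

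C3 was compared with B6 within each sex to ask how strain affects the same genes. In females 2 of the 7 genes were called, Cyp2a22 as higher and Cyp2b13 as lower in C3, where 9.40% of all genes were called, 4.63% as higher and 4.77% as lower. In males only Cyp2a5 was called, as lower in C3, where 9.64% of all genes were called, 4.09% as higher and 5.55% as lower. The median of the 7 genes was 0.01 in females and -0.21 in males, beside 0.02 and 0.01 for all genes tested. These comparisons use the same livers as the sex comparisons above.

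Cyp2a22 was higher in C3 than in B6 females by 6.90 ± 0.30 on the log2 scale (adjusted p = 2.8e-12), a 119.8-fold difference. In males the value was 1.53 ± 0.33 (adjusted p = 0.0014), which did not pass the threshold, although all 5 C3 males lay above all 5 B6 males. It was called without C3 female replicate 4, at 1.51 (adjusted p = 1.2e-05). The DESeq2 test called it in males (adjusted p = 2.5e-05). Counts of Cyp2a22 were at most 0.127% of those of its sister Cyp2a12 in B6 of either sex, between 0.180% and 0.274% in C3 males and between 3.23% and 14.7% in C3 females. Reads of both strains were aligned to mm9, a C57BL/6J genome, and the part of C3 variants in the placement of reads between Cyp2a22 and Cyp2a12, or between Cyp2a4 and Cyp2a5, was not tested.

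Cyp2a5 was lower in C3 males, where the log2 fold change was -1.42 ± 0.20 (adjusted p = 2.1e-05), a 2.68-fold difference, and every C3 male lay below every B6 male. In females it was -0.87 ± 0.20 (adjusted p = 0.0023), the livers overlapped and the gene was not called, although the fits without B6 female replicate 1 (-1.0, adjusted p = 5.8e-04) and without B6 female replicate 4 (-0.98, adjusted p = 6.9e-04) called it. By DESeq2 it was called in females too (adjusted p = 5.9e-05). Within pools the log2 ratio of C3 to B6 was -1.33 to -0.55 in females and -1.59 to -1.25 in males.

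A list of 8 markers of hepatocytes around the central vein also held genes that were lower in C3. In females 5 of 8 were called as lower: Glul, which encodes glutamine synthetase, Oat, Cyp2e1, Cyp1a2 and Slc1a2. In males 4 of 8 were called as lower: Glul, Oat, Slc1a2 and Lgr5. Their log2 fold changes ran from -2.38 for Slc1a2 to -0.53 for Cyp2e1 in females and from -1.78 for Slc1a2 to -0.95 for Glul in males. The median of the 8 was -0.73 in females and -0.57 in males. The summed level of the 8 markers was 12208 to 16829.7 TPM in females and 10185 to 15087 in males of B6, and 7467 to 9330.3 in females and 8519 to 12376 in males of C3. None of the 8 was at 0 in any group, and their part in the difference of Cyp2a5 was not tested.

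Every C3 female lay above every B6 female in Cyp2a4, at 1.46 ± 0.35 (adjusted p = 0.0031, not called). Without C3 male replicate 2 it was called, at 1.44 (adjusted p = 7.2e-05). Cyp2a4 and Cyp2a5 thus stood in opposite order in the females of the strains, as reads were placed on mm9: the count of Cyp2a4 was 21.1% to 96.1% of that of Cyp2a5 in B6 females and 192% to 267% in C3 females. With both genes added together, the difference between C3 and B6 females was 0.27 (adjusted p = 0.17). In males, where Cyp2a4 was near 1 TPM, the value was 0.46 ± 0.58, and -0.72 without C3 male replicate 2.

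Cyp2b13 was lower in C3 females by the edgeR test, at -0.84 ± 0.17 (adjusted p = 6.3e-04), with overlapping livers. Of the 20 fits that left out 1 library each, 7 lost this call, those without B6 female replicate 2, 3 or 4 and those without C3 female replicate 1, 3, 4 or 5, with adjusted p-values of 0.0014 to 0.0045. By DESeq2 the adjusted p was 0.021. Cyp2b9 did not differ between the females of the strains beyond its error, at 0.01 ± 0.44 (adjusted p = 0.99), and in males it was -2.48 ± 0.75 (adjusted p = 0.015), or -0.96 without B6 male replicate 1. Cyp2b10 was 0.47 ± 0.37 in females (adjusted p = 0.36) and 1.24 ± 0.39 in males (adjusted p = 0.019), not called in either. Cyp2a12 was -0.07 ± 0.07 in females and -0.21 ± 0.07 in males, not called in either.

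The livers of the strains did not overlap in TPM for 2 genes in females, Cyp2a4 and Cyp2a22, against 12.9% of all genes, and for 2 in males, Cyp2a5 and Cyp2a22, against 15.3%.

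Whether the sex difference depends on strain was tested by the interaction of sex and strain. Of the 7 genes tested singly, only Cyp2a22 was called, with a sex difference larger in C3 than in B6 by 5.37 ± 0.47 on the log2 scale (adjusted p = 1.7e-06), where 0.401% of all genes were called, 0.270% as higher and 0.131% as lower. With the counts of Cyp2a4 and Cyp2a5 added together the pair was called too, at 1.67 (adjusted p = 1.5e-04). For the other 6 genes the adjusted p was 0.15 to 0.89. The largest of their values was that of Cyp2b9, at 2.5 ± 0.88 (adjusted p = 0.15), which was 0.92 without B6 male replicate 1. For Cyp2a4 it was 1.01 ± 0.68, and 2.17 without C3 male replicate 2.

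Added up, the 7 genes gave 3897 ± 822 TPM in females and 2484 ± 476 in males of B6, and 3841 ± 368 in females and 1674 ± 264 in males of C3. The summed level ranged from 2776 to 5069 in B6 females and from 1863 to 2972 in B6 males, so these livers overlapped, whereas in C3 the females, from 3401 to 4253, lay above the males, from 1247 to 1927. The makeup differed more than the sum. Cyp2a12 and Cyp2a5 together made up nearly all of it in males, with shares of 56.6% ± 7.93 and 42.8% ± 7.58 in B6 and 74.2% ± 4.12 and 24.3% ± 3.76 in C3. In females Cyp2a12 made up 36.5% ± 4.86 in B6 and 33.7% ± 7.10 in C3. Cyp2b9 took 19.2% ± 2.90 and 18.03% ± 3.33 of the female sum, and Cyp2a4 10.8% ± 4.20 in B6 and 27.5% ± 1.96 in C3. Cyp2b13 took 8.53% ± 1.57 and 4.47% ± 1.19. In males Cyp2a4, Cyp2b9 and Cyp2b13 each had a mean share of at most 0.142%.

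**Figure D4:**
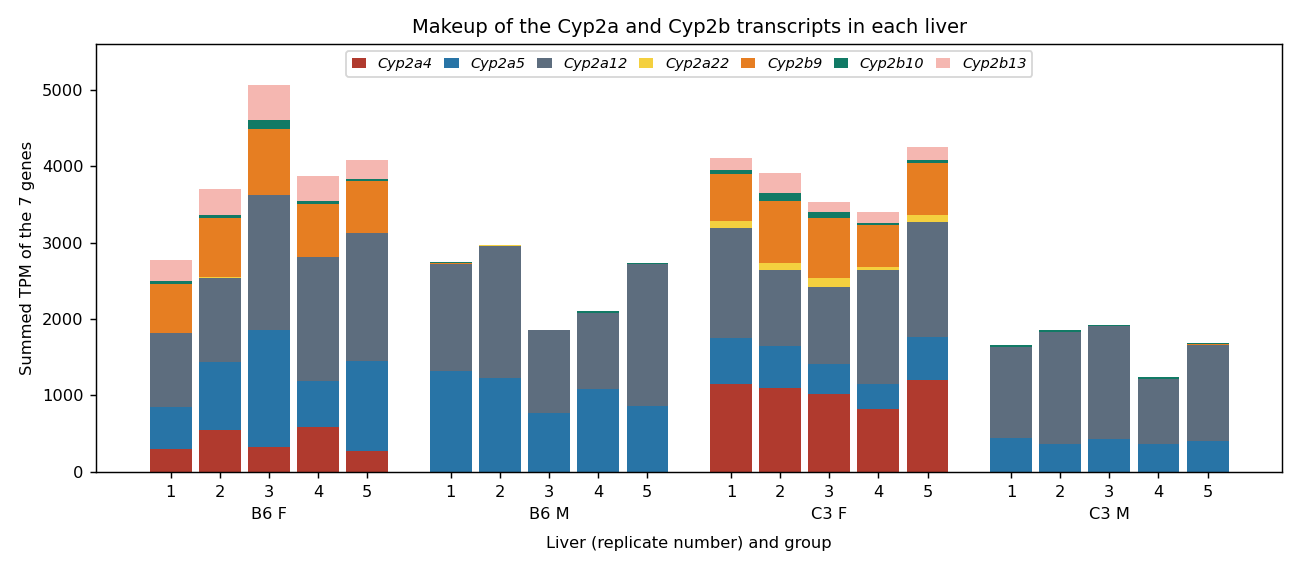
Summed TPM of the 7 genes in each liver, stacked by gene, with the 5 livers of each group side by side and the axis from 0. Male bars consist almost wholly of Cyp2a12 and Cyp2a5, female bars also hold Cyp2b9, Cyp2a4 and Cyp2b13, and the Cyp2a4 part is larger in C3 females, at 27.5% on average, than in B6 females, at 10.8%.

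Within groups the genes varied to different degrees. The coefficient of variation of TPM was 11.7% to 16.3% for Cyp2b9 in females and 9.37% for Cyp2a5 in C3 males, below or near the median of all tested genes, 15.9% to 18.4% by group. It was 36.3% for Cyp2a4, 43.3% for Cyp2a5 and 76.4% for Cyp2b10 in B6 females. In males of B6 and C3 it was 157.5% and 54.7% for Cyp2b9 and 50.0% and 124.4% for Cyp2a4. After group and pool had been removed from log2 CPM, the SD was 0.11 for Cyp2a12, 0.35 for Cyp2a5, 0.46 for Cyp2b13, 0.50 for Cyp2a22, 0.68 for Cyp2b10, 0.84 for Cyp2a4 and 1.11 for Cyp2b9, beside a median of 0.16 over all tested genes. For Cyp2a4, Cyp2b9 and Cyp2b13 this includes males with few counts. Cyp2b13 had the fewest, 1 to 9 a library in B6 males, where its coefficient of variation of TPM was 67.4%. The prior count of 2 narrows its spread on the log2 scale.

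The spread of Cyp2a12 followed the sequencing pool. Its TPM was 1601 ± 144 (n = 8, range 1465 to 1861) in pool 1, 1417 ± 222 (n = 5, 1195 to 1769) in pool 2 and 1003 ± 82.5 (n = 7, 854 to 1109) in pool 3. No liver of pool 3 overlapped a liver of the other pools, while all 4 groups were present in each pool. Pool 3 also held the deepest libraries. Cyp2a5 did not divide in this way, at 695 ± 357, 857 ± 528 and 656 ± 268 TPM in pools 1, 2 and 3. Pool was a term of the model behind each fitted fold change, except where a fit without it is named. TPM levels, sums, shares and ratios between single livers were not adjusted for pool.

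**Figure D5:**
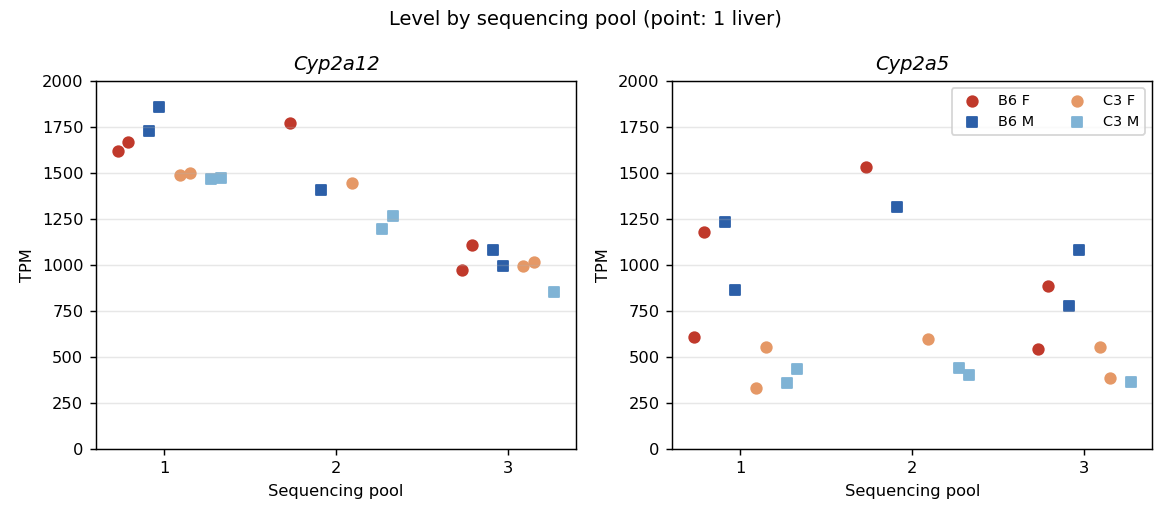
TPM of Cyp2a12 and Cyp2a5 in each liver by sequencing pool, with symbols for the 4 groups and the level axes from 0. Cyp2a12 lies between 854 and 1109 TPM in pool 3 and from 1195 TPM upwards in pools 1 and 2 whatever the group, whereas the Cyp2a5 levels of the pools overlap widely.

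The genes with the most similar pattern to each gene were found by Pearson's r of log2 CPM over the 20 livers. These r are descriptions, and all 20 livers share the sex and strain structure and the pools. Genes with a pattern like that of Cyp2a4 included Aldh3b3 (r = 0.98) and the sulfotransferase gene Sult3a1 (0.98). Cyp2b9 was most like Slc22a26 (0.98), a member of an organic ion transporter family, Rsph4a (0.97) and Gm4794 (0.97). Cyp2b13 was most like Gm4794 (0.99), Xist, the RNA of the inactive X chromosome (0.99), and Slc22a26 (0.99). Cyp2a22 was most like Mcmdc2 (0.97), Pnpla5 (0.94) and Adrbk2 (0.92), and Cyp2b10 most like Sh3yl1 (0.91), the convertase gene Pcsk5 (0.90) and the hepcidin gene Hamp2 (0.90). Cyp2a12 was most like Smc1a (0.96), Morf4l1 (0.96) and Snx4 (0.95), and Cyp2a5 most like Pls3 (0.87), Tns1 (0.86) and Robo1 (0.86).

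With group and pool removed, r over the 20 livers was 0.76 for Cyp2b10 and Hamp2 and -0.05 for Cyp2b13 and Xist. Among the 7 genes themselves it was highest for Cyp2a5 and Cyp2b10 (0.51), Cyp2a4 and Cyp2b9 (0.47) and Cyp2b9 and Cyp2b10 (0.45). It was lowest for Cyp2a12 and Cyp2b9 (-0.45). For the sisters it was -0.08 for Cyp2a4 and Cyp2a5, -0.23 for Cyp2a12 and Cyp2a22 and 0.17 for Cyp2b9 and Cyp2b13. The r of Cyp2a4, Cyp2b9 and Cyp2b13 include males with few counts, where single livers can weigh heavily. Both Cyp2a4 and Cyp2b9 were highest among C3 males in replicate 2, at 136 and 35 counts. The part of such livers in these r was not tested.

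Genes that act with these enzymes or upstream of them were taken from fixed lists. Of 5 electron transfer partners, Por, the P450 reductase, was higher in females in both strains, at 0.83 ± 0.12 in B6 (adjusted p = 2.6e-05) and 0.96 ± 0.12 in C3 (adjusted p = 6.1e-06). Cyb5b and Cyb5r3, of the cytochrome b5 system, were lower in B6 females, at -0.53 and -0.60. In C3 neither was called, although 4 of the 5 partners were lower in females at an unadjusted p under 0.05 and only Por was higher. The median of the 5 was -0.21 in B6 and -0.25 in C3. For sex in B6, DESeq2 called 3 of the 5, as edgeR did, but limma called only 1 at either pseudocount. Cyb5b was also lower in C3 than in B6, at -0.54 in females and -0.73 in males.

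Of 15 genes of growth hormone signalling and liver transcription factors, Cux2, a factor of the female liver, was higher in females at 5.56 ± 0.52 in B6 (adjusted p = 2.3e-07) and 6.30 ± 0.52 in C3 (adjusted p = 4.5e-08). Bcl6, a repressor known from the male liver, was lower in B6 females at -2.44 ± 0.48 (adjusted p = 7.1e-04). Of the 20 fits that left out 1 library each, 9 called 1 of the 15 for sex in B6 in place of 2. In C3 edgeR did not call Bcl6. Its mean TPM was 9.10 in females and 30.9 in males of C3, beside 6.95 and 33.3 in B6. DESeq2 and limma called 2 of the 15 for sex in each strain. The median of the 15 was 0.09 in B6 and -0.20 in C3. None of the 15 was called for strain by edgeR, with 1 in females and 3 in males at an unadjusted p under 0.05, and none by DESeq2 or limma.

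Of 7 xenobiotic receptors and their regulators, the list that holds the gene of CAR, edgeR called none for sex. At an unadjusted p under 0.05 there were 2 in B6 and 3 in C3, and DESeq2 and limma called none. For strain edgeR also called none, with 4 at an unadjusted p under 0.05 in females and 3 in males, while DESeq2 called 1 in females and none in males and limma none in either. Their median log2 fold change was 0.03 and 0.05 for sex in B6 and C3, and -0.12 and -0.001 for strain in females and males. Of 8 other targets of CAR, Cyp2c37 was higher in females, at 1.30 in B6 and 0.91 in C3, and Cyp2c29 was lower, at -0.66 and -1.13. Cyp2c55 was lower in C3 females than in C3 males at -1.57. In B6 it was not called, with a mean of 6.81 TPM in females and 12.9 in males. The median of the 8 was -0.16 in B6 and 0.08 in C3. For sex in B6, DESeq2 called 2 of the 8, as edgeR did, and limma 1. For sex in C3, edgeR and DESeq2 called 3, and limma called 3 on log2 (TPM + 1) and 2 on log2 (TPM + 0.1). For strain, Cyp2c37 was called as lower in C3 females, at -0.72. In males edgeR and DESeq2 called none and limma called 1, with 4 at an unadjusted p under 0.05.

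The livers carried the markers of hepatocytes at high level in every group, with a summed level of Alb, Apoa1, Ttr, Tat and Cps1 of 103440.4 to 134080.1 TPM in females and 77179 to 102834 in males of B6, and 143308 to 171837 in females and 106282 to 133040.0 in males of C3. Most of this sum was Alb, with a mean of 94241 TPM in females and 65382 in males of B6, and 125358 and 88349 in C3. For sex, edgeR, DESeq2 and limma called none of the 5, with 4 in B6 and 5 in C3 at an unadjusted p under 0.05, of which 1 was higher and 3 or 4 were lower in females. For strain, Apoa1 was called as higher in C3, at 0.84 in females and 0.71 in males. Of the pericentral markers, edgeR called none for sex in B6, with 1 at an unadjusted p under 0.05 and 1 call each by DESeq2 and limma, and Cyp1a2 as lower in C3 females, at -1.0.

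Markers of other cell types were low beside those of hepatocytes. The 4 Kupffer cell markers summed to 263 to 381 TPM in females and 157 to 268 in males of B6, and 195 to 295 in females and 119 to 183 in males of C3. For sex, edgeR called none of the 4 in either strain, but all 4 were higher in females at an unadjusted p under 0.05 in both, and limma called 1 in B6. For strain, Clec4f and Adgre1 were lower in C3 females and Adgre1 was lower in C3 males. The 6 endothelial and stellate markers summed to 298 to 381, 224 to 282, 242 to 298 and 184 to 231 TPM in B6 females, B6 males, C3 females and C3 males. EdgeR, DESeq2 and limma called none of them for sex, with 5 in B6 and 3 in C3 at an unadjusted p under 0.05, all higher in females. For strain, Lyve1 was called as lower in C3 females.

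The 3 lymphocyte markers summed to 9.52 to 12.7, 5.35 to 9.38, 5.74 to 9.85 and 3.10 to 3.91 TPM in the same order. Ptprc was called as higher in C3 females than in C3 males at 0.74 and as lower in C3 than in B6 males at -0.74. Of the 20 fits that left out 1 library each, 16 called no lymphocyte marker for sex in C3. For strain in males 7 of them called none. In B6 edgeR called none of the 3 for sex, and DESeq2 and limma called 1 each. The 4 cholangiocyte markers summed to 3.29 to 6.07 TPM over all 20 livers. Sox9 was called as lower in females at -1.42 in B6 and -0.84 in C3 and as higher in C3 than in B6 females at 0.85. The median of the 4 had the other sign, at 0.06 and 0.42 for sex in B6 and C3 and -0.01 for strain in females. At an unadjusted p under 0.05, 1 of the 4 was lower in B6 females, and 1 was higher and 1 lower in C3 females than in males. With 1 library left out, 16 of 20 fits called no cholangiocyte marker for sex in C3 and 15 called none for strain in females. In these 2 comparisons DESeq2 called 1 and limma none. No marker was at 0 in a whole group. The part of these cells in the sex differences of the 7 genes was not tested. In the interaction test edgeR called no gene of these lists, nor of the other genes of the cluster, with 13 of their genes at an unadjusted p under 0.05, 2 calls by DESeq2 and 1 by limma.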

How the data were processed

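RNA-seq of 20 mouse livers was analysed, with group and pool taken from the sample labels. The authors trimmed reads with Cutadapt 1.9.1, aligned the 125-base read pairs of both strains to mm9 with STAR 2.5.1b and deposited raw counts per RefSeq gene from strand-specific counting with featureCounts (Subread 1.5.0-p1), in which read pairs that mapped to several places were not counted. The authors also deposited TPM values, whose gene length is not defined in the sources used here. In both tables the headers of the symbol and identifier columns are exchanged, and they were read by content.

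The model was fitted with edgeR 4.0.16 in R 4.3.3: filterByExpr on the 4 groups, TMM, and glmQLFit and glmQLFTest with group and pool over all 20 libraries. Benjamini-Hochberg adjustment was over 13704 genes, and a gene was called at an adjusted p under 0.001 and a log2 fold change over 0.5 in size. CPM are TMM-normalized, and r used log2 CPM with a prior count of 2. The replicates are separate mice: counts of mice of a group differed by 19.9 to 192 times their sampling variance (chi-square per degree of freedom). A library shows a gene from about 3 counts, 0.0641 to 0.110 CPM, which covers counting error only. Alternatives were DESeq2 1.42.0, limma 3.58.1 on log2 (TPM + 1) and log2 (TPM + 0.1), other scalings, no filter, no pool term, a replicate block, summed sister genes, other thresholds and leaving out each library. The fit was tested on simulated data. Sequences were taken from the NCBIM37 (mm9) genome and its transcripts, and aligned with Biopython 1.88. Promoter windows of all genes were read from the same genome at the deposited gene starts. The RefSeq promoter table (GRCm38) served only to check the windows of the 7 genes.

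The members and the gene lists (other genes of the cluster, electron transfer partners, growth hormone and liver factors, xenobiotic receptors, other targets of CAR, and markers of pericentral hepatocytes, hepatocytes, cholangiocytes, Kupffer cells, endothelial and stellate cells, and lymphocytes) were chosen with earlier results of these data known. Named are all 7 members, list genes called in at least 1 of the 5 comparisons and, per member, the 3 genes with the highest r, of which 1 is not reported here. List genes not called are only counted, apart from the hepatocyte markers and the untested genes of the cluster. The summed sisters, the windows and the motifs rest on annotated transcripts.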

Additional observations from a re-analysis of the deposited data

Results flagged for a closer look

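In 4 of the 28 gene and group combinations, the liver with the highest TPM lay farther from the nearest of the other livers than Dixon's limit of 0.71 for 5 samples allows, measured as the gap over the range of the group. For normally distributed values chance gives this in about 5% of such groups. The limit was applied to TPM without a log scale, where high values spread more, and the 28 combinations share livers. Cyp2a4 in C3 male replicate 2 was at 4.47 TPM beside 0.940 in the next liver (gap over range 0.866). Cyp2b9 in the same liver was at 1.05 TPM beside 0.486 (0.828). Cyp2b9 in B6 male replicate 1 was at 13.7 TPM beside 3.22 (0.791). Cyp2b10 in B6 female replicate 3 was at 119 TPM beside 42.3 (0.838). In each case the liver stayed on the side of its own sex.

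The sex difference of Cyp2a22 was larger in C3 than in B6 by 5.37 on the log2 scale in the interaction test.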

How the results depend on the processing

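The counts of called genes among the 7 did not change under any alternative that tested the genes singly in B6 for sex (4) or in the interaction (1), and in C3 for sex they were 4 in all but the looser threshold of an adjusted p under 0.05 with no fold limit (5). For strain in females the count of 2 became 1 without the pool term and with limma on log2 (TPM + 0.1), which keep Cyp2a22, and 4 at the looser threshold, which adds Cyp2a4 and Cyp2a5. Leaving out 1 library gave 1 to 3. DESeq2 also gave 2, but Cyp2a22 and Cyp2a5. For strain in males the count of 1 became 2 with DESeq2 and with no filter, which add Cyp2a22, and 5 at the looser threshold, and leaving out 1 library gave 1 to 2. The mice with the same replicate number share only a number: their deviations correlated at -0.19 and -0.24 on average between the sexes and 0.22 and 0.18 between the strains, and 0.10, -0.01, 0.06 and 0.01 with pool removed. With a replicate block the counts were 4, 4, 2, 1 and 1, as without it.

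Signs turned for differences that were not called. With sisters summed, the value was 0.24 for Cyp2a5 by sex in B6, 0.27 by strain in females, -1.39 for Cyp2a4 by strain in males, -0.19 for Cyp2b9 by strain in females and 2.11 for Cyp2b13 in the interaction. The sum of Cyp2a4 and Cyp2a5 was not called for sex in B6, where Cyp2a4 alone was, and was called in the interaction at 1.67 (adjusted p = 1.5e-04), and that of Cyp2b9 and Cyp2b13 was not called by strain in females. Cyp2a12 by sex was 0.016 in B6 with limma at either pseudocount and -0.067 in C3 without the pool term. Cyp2b9 by strain in females was -0.017 with upper-quartile factors, -0.030 without the pool term and -0.10 with limma at either pseudocount. Within pools the sex value was 0.14 for Cyp2a5 and 0.25 for Cyp2a12 in pool 2 of B6 and -0.057 for Cyp2a12 in pool 1 of C3. Leaving out 1 library gave -0.10 to 0.013 for Cyp2a12 and -0.14 to 0.26 for Cyp2b9 by strain in females, and -0.72 to 0.75 for Cyp2a4 by strain in males. The cause was not tested.

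Over all genes, the calls fell without the pool term from 869 to 421 and from 945 to 482 for sex in B6 and C3, from 1288 to 815 for strain in females and from 55 to 20 in the interaction. The interaction had 181 calls with DESeq2 and 32 to 55 with 1 library left out. At an adjusted p under 0.05 with no fold limit there were 4742, 5479, 4515, 4733 and 405 calls. Limma on log2 (TPM + 0.1) moved the median log2 fold change of all genes to 0.11 and 0.12 for sex, and 71.6% and 77.4% of its calls were higher in females. Male Cyp2b13 rests on 1 to 9 counts a library, which sets the precision of its fold change. The sum of the 7 genes in C3 females was 3179 in CPM.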
